A study of Mus musculus with 10 samples.

Results

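The genes described here encode voltage-gated and related ion channels: potassium channels (Kcn genes), sodium channels (Scn), calcium channels (Cacn), chloride channels and exchangers (Clcn), pacemaker channels (Hcn) and transient receptor potential channels (Trpa, Trpc, Trpm and Trpv). They were chosen by a rule on the gene symbol that used no measured value, although earlier results of these data were known. Kcnj13 and Kcne2 were left out because they serve here as markers of the choroid plexus. The choice gave 65 genes, read by 86 probes, of 9930 genes that had a probe with a single symbol (14030 of 20355 probes). Potassium channels had 39 probes for 32 genes, calcium channels 28 for 18, transient receptor potential (TRP) channels 10 for 9 and chloride channels 7 for 4. Sodium channels were represented by 1 probe, for Scn3b, and pacemaker channels by 1 probe, for Hcn3.

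Brain RNA of 5 male Cin85-/- mice aged 15 weeks was compared on 2-colour arrays with a single pool of brain RNA from wildtype males of the same age. Cin85 is an adaptor protein encoded by Sh3kbp1. The strain background, the kind of allele and the cells in which the gene is lost were not given in the sources used here, and the source name of the mutant RNA carries an abbreviation, Kdn, that is not explained there. The pool held 5 wildtype mice by the study design and 6 by the labelling protocol. Each mutant mouse was hybridised on 2 arrays, once labelled with Cy5 and once with Cy3, so the 10 arrays represent 5 mice, and the spread between wildtype mice was not measured.

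Ion channels are membrane proteins built from subunits that form the pore and from accessory subunits that set gating, trafficking and location. In neurons, sodium channels carry the upstroke of the action potential, potassium channels repolarise the membrane and set its resting level, and calcium channels couple depolarisation to transmitter release and signalling. Chloride/proton exchangers of the Clcn family work mainly in endosomes and lysosomes, pacemaker channels open on hyperpolarisation, and TRP channels respond to chemical, thermal and osmotic signals.

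The deposited values are log2 ratios. After each array was centred on its median, the ratios of the 2 arrays of a mouse were averaged to a pair mean, and their difference (Cy5 array minus Cy3 array) divided by 2 gave the dye term. The numerator of the ratio, and any earlier turning of the Cy3 arrays to the direction of the Cy5 arrays, were not given in the sources used here. If they had been turned, the pair mean holds the difference between mutant and pool, and if not, the dye term holds it and the pair mean is dye bias. Both quantities are therefore reported, and no sign below says whether mutant or pool was higher. A probe was tested when both arrays of at least 4 mice had a value, and p-values were adjusted over 16939 probes. In whole brain RNA, fewer cells of a type and less RNA per cell cannot be told apart.

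The arrays held between 16816 and 19424 values, and 67.0% of all single-symbol probes had a value on all 10. The Cy3 array of mouse 3 stood apart: it held the fewest values and the widest spread (interquartile range 1.43, against 0.45 to 0.99 on the other arrays). Its rank correlations with the other 4 Cy3 arrays lay between -0.094 and -0.003, while those 4 correlated with each other at 0.26 to 0.42. The 2 arrays of the same mouse correlated at -0.43 to -0.21 in the other 4 mice and at 0.085 in mouse 3. Among probes measured in all 5 mice, leaving out mouse 3 turned the sign of the mean pair mean for 23 of 65 channel probes (35.4%), beside 26.6% of all probes, and values without it are given below where the sign turned or the mean moved widely. The largest ratio of each array was repeated over many probes, and it was positive on all 5 Cy5 arrays and negative on all 5 Cy3 arrays. Sh3kbp1 itself gave a mean pair mean of 0.0082 ± 0.14 (SD, n = 5 mice; adjusted p = 0.989 by limma) and a mean dye term of 0.12 ± 0.089 (adjusted p = 0.442) on probe 8640, and its other probe had values on 4 arrays; the part of the transcript they cover was not given in the sources used here. Of 10 neuronal marker genes 8 were on the array, and 7 of their 13 probes had a value on all 10 arrays. Of 8 kidney markers 5 were on the array, with 2 of 5 probes on all 10, and no channel intensity was analysed here, so these counts say nothing of the level of either list.

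Of the 86 channel probes, 65 (75.6%) had a value on all 10 arrays and 73, for 54 genes, were tested. The 13 untested probes included every probe of 11 genes. These were the potassium channel genes Kcnip3, Kcnj12, Kcnj8, Kcnk5, Kcnmb4 and Kcnn3, the calcium channel genes Cacna2d2, Cacna2d3 and Cacng2, and the TRP genes Trpm6 and Trpm8. All 7 chloride channel probes were tested. The Cy3 array of mouse 3 lacked 15 of the 86 probes, against 2 to 8 on the other 9 arrays, and 7 of the 8 probes tested in 4 mice lacked this mouse.

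No channel probe passed an adjusted p of 0.05 for the pair mean by limma, as was true of all 16939 probes (0% called); the lowest adjusted value was 0.911. At an unadjusted p under 0.05, 2 of 73 channel probes were called, which is 2.74% beside 3.73% of all probes. They were Kcnn4 with a positive ratio (1.94% of all probes were so called) and Kcnj15 with a negative ratio (1.79%). Without mouse 3 the count was 2 of 76, or 2.63%, beside 4.43% of all probes. The 73 mean ratios split into 33 positive and 40 negative with a median of -0.041, beside 8491 and 8448 with a median of 0.0006 over all probes. Averaged by gene, 29 of 54 channel genes were positive and 25 negative, and the median turned to 0.016. Over the 65 channel probes with all 5 mice the split was 31 to 34, and 26 to 39 without mouse 3. The 95% interval lay within 1.5-fold of equality for 41 of the 73 channel probes (56.2%, beside 60.7% of all probes) and within 2-fold for 64 (87.7%, beside 85.8%). For those 64 probes the interval held no mean pair mean of more than 2-fold on the deposited scale. The interval measures the spread between mutant mice and leaves out the error of the single pool. It bounds a difference between mutant and pool only if the Cy3 arrays had been turned.

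**Figure D1:**
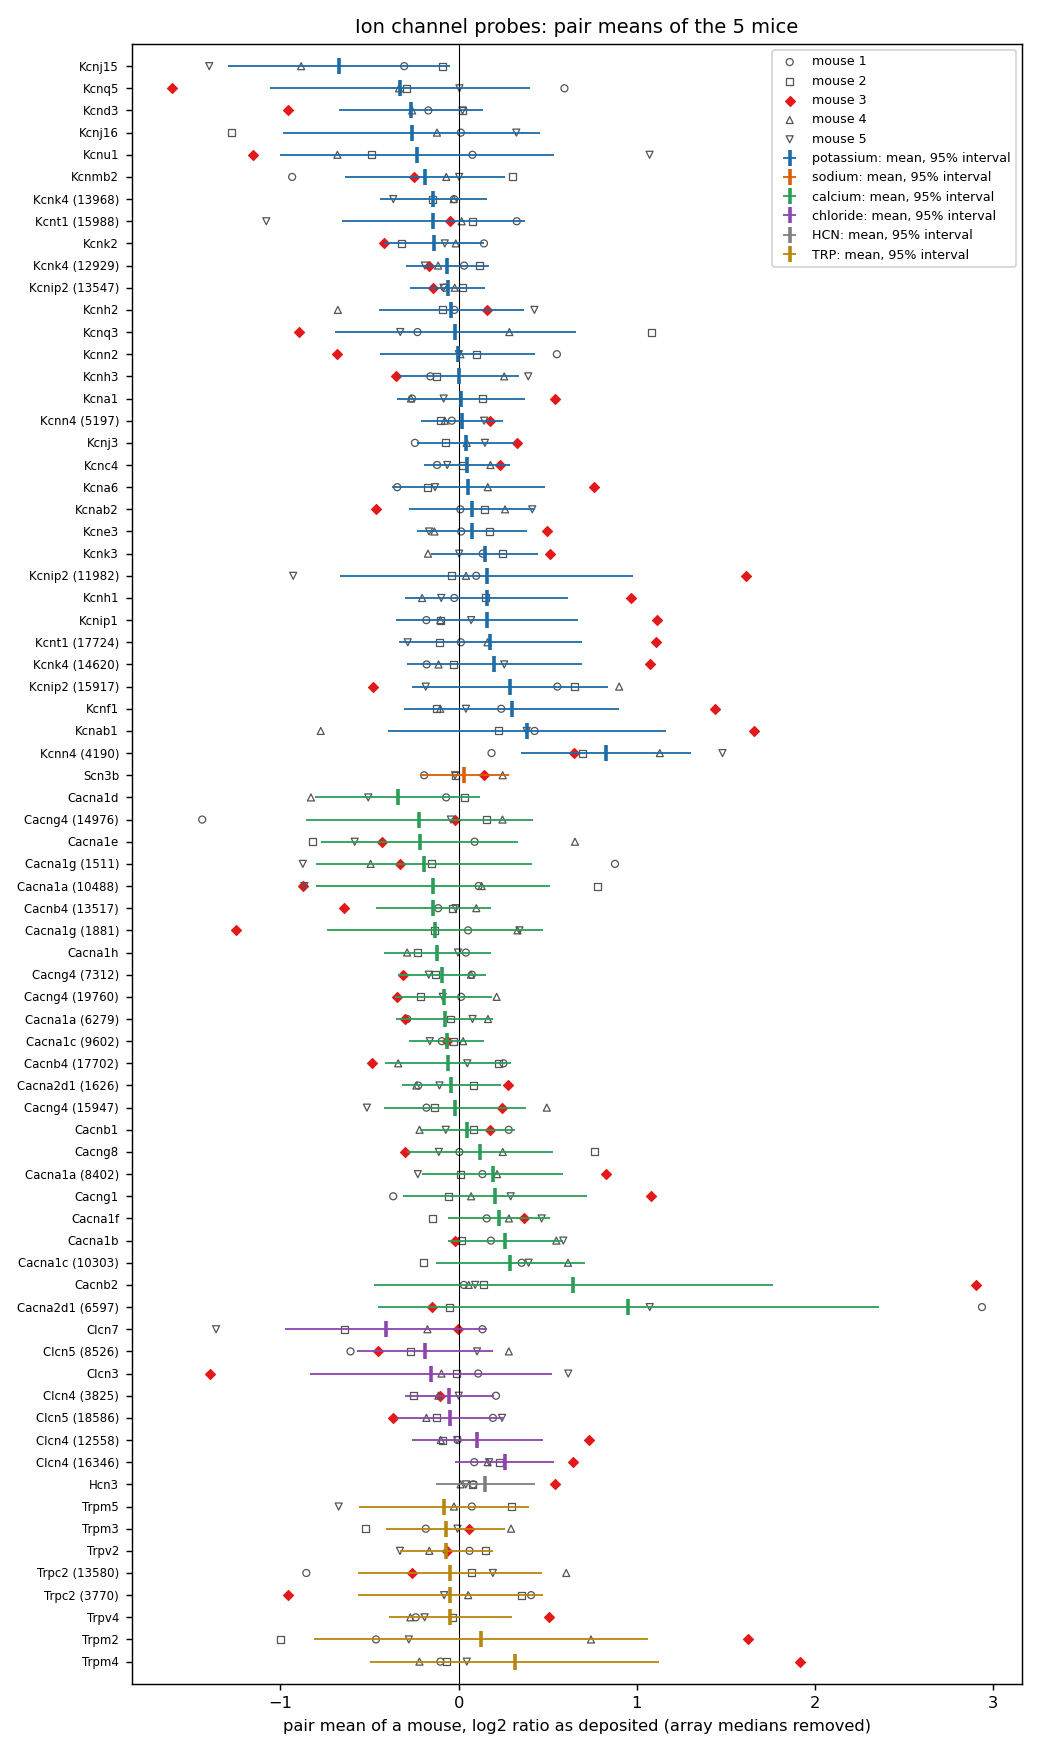
Pair mean of each mouse (log2 ratio as deposited, array medians removed) for the 73 tested channel probes, ordered by mean within each class; symbols stand for mice, with mouse 3 as filled red diamonds, and coloured bars give the mean and its 95% interval. Most intervals cross 0, and mouse 3 is the farthest from the median in 36 of the 65 channel probes measured in all 5 mice (55.4%, beside 45.2% of all probes).

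The calcium-activated potassium channels gave the probe with the smallest p. Kcnn4 encodes the intermediate-conductance channel, known mainly from blood cells, microglia and epithelia. On probe 4190 the ratios of mice 1 to 5 were -0.22, 0.69, 0.68, 1.20 and 1.09 with the mutant in Cy5 and 0.59, 0.70, 0.61, 1.06 and 1.87 with the mutant in Cy3. They were positive on 9 of 10 arrays and in the pair mean of all 5 mice, which ran from 0.18 to 1.48. The mean pair mean was 0.83 ± 0.50 (SD, n = 5 mice; 95% interval 0.35 to 1.30), with an unadjusted p of 0.00516 and an adjusted p of 0.911 by limma, so it did not pass. Without mouse 3 it was 0.87 ± 0.56.

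The second probe of Kcnn4, 5197, did not follow the first. Its pair means were -0.039, -0.10, 0.18, -0.078 and 0.14, with a mean of 0.020 ± 0.13 (-0.019 without mouse 3). The pair means of the 2 probes did not overlap, but only narrowly. The lowest of probe 4190, 0.1845 in mouse 1, lay just above the highest of probe 5197, 0.1755 in mouse 3. The transcript positions of both probes were not given in the sources used here. Markers of microglia, a cell type that makes this channel, had 4 probes, of which 3 were tested, all with negative mean ratios and with a median per mouse between -0.23 and -0.073; the 7 red blood cell marker probes split into 4 positive and 3 negative. Their part in the Kcnn4 value was not tested.

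Other channels gated by calcium or sodium ions gave means near 0 or signs that differed between mice. Kcnn2, a small-conductance channel of neuronal afterhyperpolarisation, had pair means of 0.55, 0.10, -0.68, 0.0095 and 0.001 and a mean of -0.0042 ± 0.44, or 0.17 ± 0.26 without mouse 3. Kcnu1, the sperm channel related to the large-conductance potassium channel, gave -0.23 ± 0.85, and -0.0048 without mouse 3. The 2 probes of Kcnt1, a sodium-activated channel of neurons, gave means of -0.14 ± 0.54 and 0.18 ± 0.54. The second rests on 1.11 in mouse 3, and without this mouse the means were -0.16 and -0.054, of the same sign.

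Inward rectifiers stabilise the resting potential and take up potassium in glia. Kcnj15, which encodes an inward rectifier best known from kidney and other epithelia, gave ratios of 0.027, 0.39, -0.62, -1.49 and -0.024 in mice 1 to 5 with the mutant in Cy5. With the mutant in Cy3 it gave -0.64, -0.57, -0.28 and -2.77 in mice 1, 2, 4 and 5. The array of mouse 3 had no value there, so 4 pair means remained, all negative, from -1.40 to -0.091. Their mean was -0.67 ± 0.59 (SD, n = 4 mice; 95% interval -1.29 to -0.046), with an unadjusted p of 0.0397 and an adjusted p of 0.911 by limma. Kidney markers, of which 4 probes were tested, split into 2 positive and 2 negative means with a median of 0.064, and their part in the Kcnj15 value was not tested.

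The other inward rectifiers did not share that sign throughout. Kcnj3, a subunit of the G-protein-gated channel of neurons, gave 0.041 ± 0.22 with pair means on both sides of 0, and -0.032 without mouse 3. Kcnj16, a partner of the main glial inward rectifier, gave -0.26 ± 0.70 (n = 4 mice) with pair means from -1.27 to 0.32.

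Among the 10 voltage-gated potassium channel probes 6 means lay above 0 and 4 below, around a median of 0.0075, and none was called at an unadjusted p under 0.05. Kcna1, a channel of axons and terminals, gave pair means of -0.26, 0.14, 0.54, -0.27 and -0.084, with a mean of 0.013 ± 0.34, or -0.12 ± 0.19 without mouse 3. Kcnq3, a subunit of the M-current, gave -0.018 ± 0.74 with pair means from -0.90 to 1.08, and 0.20 without mouse 3. Kcnh1, of the ether-a-go-go family, gave 0.16 ± 0.47, and -0.044 ± 0.15 without mouse 3. Kcnd3, an A-type channel, gave -0.27 ± 0.40, with -0.95 in mouse 3 and between -0.26 and 0.022 in the other 4. Kcnf1, a silent subunit that modifies other channels, gave 0.30 ± 0.65, with 1.44 in mouse 3 and between -0.13 and 0.24 in the others. For Kcnd3 and Kcnf1 the pair mean of mouse 3 lay outside the range of the other 4 mice, and the means without it were -0.097 and 0.013.

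Accessory potassium channel subunits gave 6 positive and 2 negative means, with a median of 0.12. Kcnab2, a cytoplasmic beta subunit of Kcna channels, gave 0.073 ± 0.33, and 0.21 without mouse 3. Kcnab1, its relative, gave 0.38 ± 0.86 with pair means from -0.77 to 1.66, the highest in mouse 3, and 0.064 ± 0.56 without it. Kcnip2, which encodes a calcium-binding partner of A-type channels, had 3 tested probes with means of -0.062 ± 0.064, 0.16 ± 0.92 and 0.29 ± 0.59, which became -0.041, -0.21 and 0.48 without mouse 3. The spread between mice on these 3 probes differed by more than their means did. In the median over the 8 probes, mice 1 to 3 were above 0 and mice 4 and 5 below it.

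The tandem-pore channels of the Kcnk family carry resting leak current. Kcnk2 gave -0.14 ± 0.23, with a positive pair mean of 0.14 in mouse 1 and negative ones in the other 4 mice, the lowest at -0.42 in mouse 3, and its mean without mouse 3 was -0.068. Of the 3 probes of Kcnk4, 2 had negative means (-0.14 ± 0.16 and -0.065 ± 0.13) and 1 a positive mean (0.20 ± 0.51). The positive mean rests on 1.07 in mouse 3, and without this mouse it was -0.017, so all 3 were negative.

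Scn3b, a beta subunit of sodium channels, was the only sodium channel gene of the set. Its ratios in mice 1 to 5 were 0.17, 0.20, 0.44, 0.70 and 0.53 with the mutant in Cy5, and -0.56, -0.24, -0.15, -0.21 and -0.57 with the mutant in Cy3. The ranges of the 2 dye orientations did not overlap, and the pair means lay close to 0, from -0.19 to 0.25, with a mean of 0.031 ± 0.17. The share of all probes with no overlap was not counted, here or for the probes below. A dye term of the same sign in all 5 mice was found for 30.5% of all probes. Pore subunits of sodium channels were not analysed here.

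The pore subunits of calcium channels, the Cacna1 genes, had 12 tested probes, 4 with a positive and 8 with a negative mean and a median of -0.099. Cacna1a, the P/Q-type channel of transmitter release, gave means of -0.14 ± 0.72, -0.078 ± 0.21 and 0.19 ± 0.39 on 3 probes. Without mouse 3 these means were 0.039, -0.023 and 0.033. Cacna1b, the N-type channel, gave pair means of 0.18, 0.014, -0.019, 0.55 and 0.59 and a mean of 0.26 ± 0.29, with an unadjusted p of 0.0941 by limma. Cacna1c, an L-type channel, gave -0.065 ± 0.070 on probe 9602 and 0.29 ± 0.34 (n = 4 mice) on probe 10303. Cacna1d, another L-type channel, gave -0.34 ± 0.40 (n = 4 mice), and Cacna1f, the L-type channel of photoreceptors, gave 0.23 ± 0.24 with a negative pair mean in mouse 2 alone. Cacna1e, the R-type channel, gave -0.22 ± 0.59. Cacna1g, a T-type channel, gave -0.19 ± 0.66 and -0.13 ± 0.66 on 2 probes, the second of which turned to 0.15 without mouse 3. Every 95% interval in this group reached across 0, and all 12 lay within 2-fold.

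An accessory calcium channel subunit, Cacnb2, held the largest single ratio among the tested channel probes. Cacna2d1, which encodes an extracellular subunit that raises surface expression of the channel, gave pair means of 2.94, -0.050, -0.15 and 1.07 in mice 1, 2, 3 and 5 on probe 6597, with a mean of 0.95 ± 1.43. The mean of this probe without mouse 3 was 1.32 ± 1.51, over mice 1, 2 and 5. Both arrays of mouse 1 were high, at 3.19 and 2.68, whereas the probe 1626 of the same gene gave -0.23 in that mouse and a mean of -0.042 ± 0.22 (-0.12 without mouse 3). Cacnb2, which encodes a cytoplasmic beta subunit, gave 2.90 in mouse 3 and between 0.029 and 0.14 in the other 4 mice. The value of mouse 3 came from its Cy3 array, at 5.38, while its Cy5 array gave 0.43. The mean of Cacnb2 was 0.64 ± 1.26 with this mouse and 0.079 ± 0.048 without it. Cacnb4, the beta subunit prominent in cerebellum, gave -0.14 ± 0.29 and -0.061 ± 0.34 on 2 probes, and -0.017 and 0.046 without mouse 3. The gamma subunits gave 2 positive and 4 negative means. Cacng8, a regulator of AMPA receptors, gave 0.12 ± 0.41 (0.23 without mouse 3), and Cacng1, the muscle subunit, gave 0.20 ± 0.54 (-0.016 without mouse 3); the 8 skeletal and heart muscle marker probes split into 4 positive and 4 negative means with a median of -0.026.

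The chloride channel probes gave 2 positive and 5 negative means, with a median of -0.053. Clcn3, an endosomal exchanger, had pair means of 0.11, -0.012, -1.39, -0.097 and 0.61 and a mean of -0.16 ± 0.75, which turned to 0.15 ± 0.32 without mouse 3. Clcn7, the lysosomal exchanger, gave -0.41 ± 0.61, with pair means from -1.36 to 0.13. Clcn4, another endosomal exchanger, gave 0.26 ± 0.22 on probe 16346 with a positive pair mean in all 5 mice (0.088, 0.23, 0.64, 0.16 and 0.17) and an unadjusted p of 0.0633 by limma; the mean was 0.16 ± 0.058 without mouse 3. Its other probes gave 0.11 ± 0.35 (-0.051 without mouse 3) and -0.053 ± 0.17, with pair means of both signs, so the sign seen in every mouse on 1 probe was not shared by the gene's other 2.

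Hcn3, a pacemaker channel subunit, gave pair means of 0.082, 0.079, 0.54, 0.011 and 0.041, with a mean of 0.15 ± 0.22, and 0.053 ± 0.034 without mouse 3. All 5 pair means were positive, although 4 of the 10 array ratios were negative.

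TRP channels gave 2 positive and 6 negative means, with a median of -0.048, and none was called. Trpv2, a TRPV channel of neurons and other cells, gave -0.069 ± 0.19. Trpv4, the osmosensitive channel, gave -0.046 ± 0.32, with 0.51 in mouse 3. Pair means in the other 4 mice were negative, with a mean of -0.18 ± 0.11. Trpm3, a channel made in neurons and in the choroid plexus, gave -0.072 ± 0.30. Of 7 choroid plexus marker genes 3 were on the array, and their 3 tested probes all had negative means. The median was -0.32, and the median per mouse lay between -0.51 and -0.22. By limma, 2 of these probes were called at an unadjusted p under 0.05, beside 3.73% of all probes (1.79% negative). After adjustment 0 of these probes were called. Their part in the Trpm3 and Trpv4 values was not tested. Trpm4, a calcium-activated cation channel, gave 0.31 ± 0.90, with 1.92 in mouse 3 and between -0.22 and 0.046 in the other 4, and -0.087 without mouse 3.

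The classes were then set side by side. The median pair mean of the potassium probes was -0.0073, -0.006, 0.18, -0.074 and 0.002 in mice 1 to 5. That of the calcium probes was 0.047, -0.040, -0.15, 0.13 and -0.058. The potassium minus calcium difference of medians was -0.054, 0.034, 0.32, -0.20 and 0.060, so it was positive in 3 mice and negative in 2. Chloride medians ran from -0.12 to 0.11 and TRP medians from -0.14 to 0.059, and both changed sign between mice. The ranges of the 4 classes over the 5 mice overlapped in every pair of classes.

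Pair means of the same sign in all 5 mice were found for 4 of 65 channel probes, Kcnn4 4190, Cacnb2, Clcn4 16346 and Hcn3, which is 6.15% beside 7.01% of all probes. All 4 were positive, beside 3.45% of all probes positive and 3.57% negative in every mouse. The count rests on mouse 3 in part: in the 4 mice without it, 11 of 72 channel probes (15.3%) had the same sign, beside 14.2% of all probes. For Cacnb2, Clcn4 and Hcn3 mouse 3 gave the highest pair mean, and for Kcnn4 it lay inside the range of the others.

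The dye term was larger than the pair mean, with a median size of 0.25 over the channel probes against 0.14 (0.26 and 0.12 over all probes). By limma, 19 of 73 channel probes (26.0%) had an unadjusted p under 0.05, beside 27.6% of all probes. Of these 19, 7 were positive and 12 negative, beside 13.6% and 14.0% of all probes. None passed after adjustment (0% of all probes), with a smallest adjusted p of 0.0988. The same sign in all 5 mice was found for 19 of 65 channel probes (29.2%), 7 positive and 12 negative, beside 30.5% of all probes, 12.4% positive and 18.0% negative. Without mouse 3 the shares were 27.6% of 76 channel probes at an unadjusted p under 0.05, beside 31.3% of all probes, and 43.1% of 72 with the same sign in 4 mice, beside 46.6%. The shares of channel probes were thus near those of all probes.

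**Figure D2:**
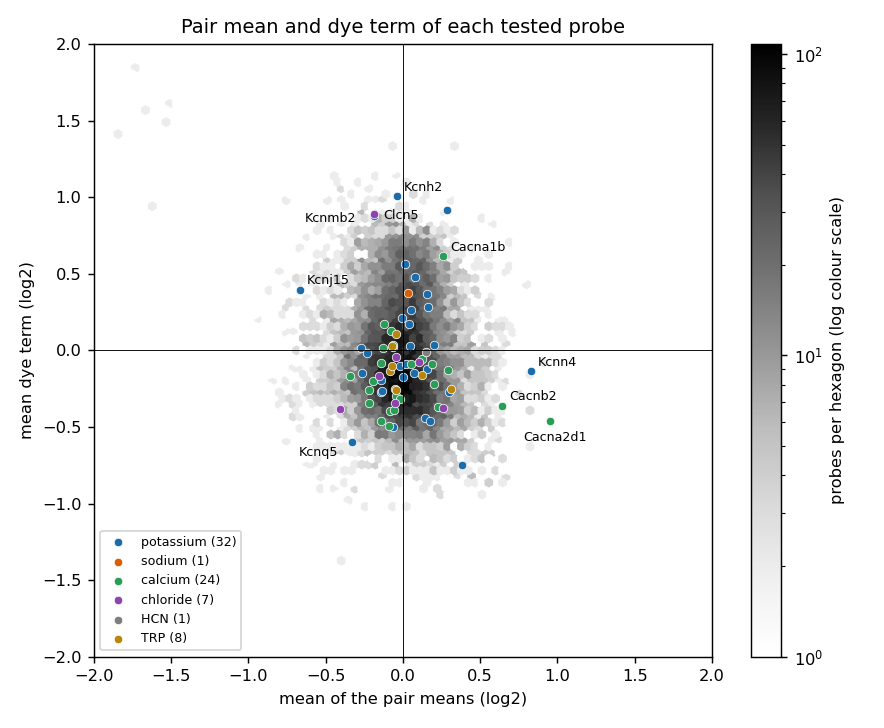
Mean dye term (vertical, log2) against mean pair mean (horizontal, log2) for each tested channel probe, coloured by class, over the density of all tested probes in grey hexagons (log colour scale). Channel probes lie within the cloud of all probes and spread further along the dye term, up to 1.01 for Kcnh2, than along the pair mean, except for a few such as Kcnn4 and Cacna2d1.

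Kcnmb2, an accessory subunit of the large-conductance calcium-activated potassium channel, had the smallest p of the dye term. It gave -0.38, 1.03, 0.78, 1.10 and 0.89 in mice 1 to 5 with the mutant in Cy5 and -1.49, -0.43, -1.28, -1.24 and -0.89 with the mutant in Cy3. The Cy5 array exceeded the Cy3 array in all 5 mice, and the 2 sets of arrays did not overlap, although the Cy5 array of mouse 1 lay just above the Cy3 array of mouse 2. Its dye term was 0.88 ± 0.24 (SD, n = 5 mice; 95% interval 0.58 to 1.17), with an unadjusted p of 0.000295 and an adjusted p of 0.0988 by limma.

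Cacna1b, already given for its pair mean, had ratios of 0.64, 0.56, 0.55, 1.51 and 1.13 with the mutant in Cy5 and -0.27, -0.53, -0.59, -0.41 and 0.045 with the mutant in Cy3, with no overlap. Its dye term was 0.61 ± 0.20 (95% interval 0.34 to 0.89; adjusted p = 0.0988 by limma). Kcnq5, an M-current subunit, ran the other way. Its ratios were -0.29, -0.60, -2.22, -0.99 and -0.52 with the mutant in Cy5 and 1.48, 0.019, -0.99, 0.32 and 0.53 with the mutant in Cy3. The Cy5 array was the lower in each mouse, and the orientations overlapped through the Cy3 array of mouse 3. The dye term of Kcnq5 was -0.60 ± 0.21 (adjusted p = 0.0988 by limma).

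Kcnh2, Clcn5, Kcna6, Kcne3, Kcnip1 and Cacng4 are named here after their values were seen. Scn3b had been named by the rule on the pair mean, and its dye term is given here with its value seen. Kcnh2, which encodes the ERG potassium channel, had the largest dye term of the channel probes, 1.01 ± 0.52. All 5 of its Cy5 arrays were positive (0.15 to 1.90) and all 5 Cy3 arrays negative (-1.51 to -0.50). Probe 8526 of Clcn5, an endosomal exchanger, gave 0.89 ± 0.50, while its other probe gave -0.043 ± 0.45. Both 8526 and the Kcnh2 probe had an adjusted p of 0.0988 by limma, and the dye term of Scn3b, 0.38 ± 0.13, had one of 0.103. After all arrays were scaled to the same spread, 3 channel probes passed the adjusted threshold by limma: Kcnh2 at 0.96, Kcnmb2 at 0.79 and Cacna1b at 0.63, each with an adjusted p of 0.0497, beside 1.52% of all probes.

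Cacng4, a gamma subunit that also regulates AMPA receptors, was read by 4 probes, which share the gene and the arrays and are not replicates. Their dye terms were -0.49 ± 0.30, -0.40 ± 0.20, -0.34 ± 0.12 and -0.32 ± 0.20, negative in every mouse on every probe, each with an unadjusted p under 0.05 and an adjusted p between 0.107 and 0.146 by limma. On probe 7312 the ratios of mice 1 to 5 were -0.029, -0.43, -0.98, -0.47 and -1.02 with the mutant in Cy5 and 0.18, 0.17, 0.36, 0.61 and 0.69 with the mutant in Cy3, with no overlap. Without mouse 3 the dye term of probe 15947 was -0.24 ± 0.12 with an unadjusted p of 0.0571 by limma, and the other 3 stayed under 0.05. Of 109 genes with 4 tested probes, 16 had dye terms of the same sign on all 4, and Cacng4 was the 1 gene with all 4 under 0.05. The pair means of its 4 probes were also all negative but small, from -0.22 to -0.019.

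**Figure D3:**
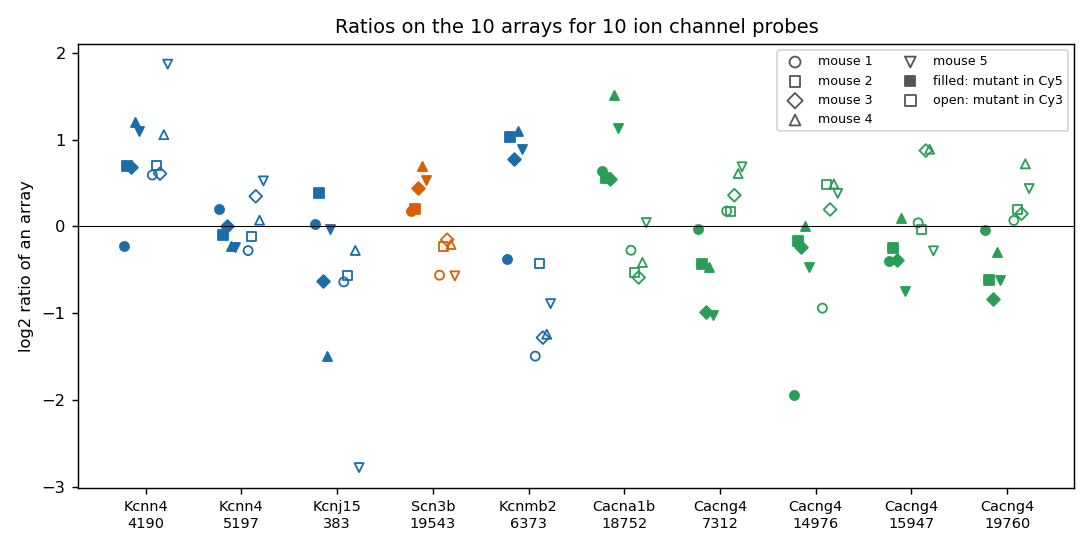
Log2 ratio on each of the 10 arrays for 10 channel probes; filled symbols have the mutant in Cy5, open symbols in Cy3, and the symbol shape gives the mouse. Kcnn4 probe 4190 is positive on 9 arrays in both orientations, while Scn3b and Cacng4 probe 7312 separate by orientation with no overlap.

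Several potassium channel probes followed the orientation on every array but the Cy3 array of mouse 3. They were grouped after their values were seen, and the share of all probes with this layout was not counted. Without mouse 3, 46.6% of all probes had a dye term of the same sign in the other 4 mice. Kcna1 gave 0.18 to 0.80 on the 5 Cy5 arrays, -1.29 to -0.45 on 4 Cy3 arrays and 0.67 on the Cy3 array of mouse 3. Kcne3, a small accessory subunit, gave 0.43 to 0.70 on the Cy5 arrays, -0.97 to -0.090 on 4 Cy3 arrays and 0.54 on that array. Kcna6, Kcnh1 and Kcnip1 showed the same layout, with 1.49, 1.35 and 1.51 on the Cy3 array of mouse 3. Without mouse 3 their dye terms were 0.74 for Kcna1, 0.61 for Kcne3, 0.52 for Kcna6, 0.56 for Kcnh1 and 0.45 for Kcnip1, beside 0.56, 0.48, 0.27, 0.37 and 0.28 with it. The lowest adjusted p of these 5 without mouse 3 was 0.0762 by limma, for Kcna1, which was also the lowest value over all probes.

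By class, the dye terms of potassium probes split into 15 positive and 17 negative, and those of calcium probes into 5 and 19, with medians of -0.054 and -0.21. Over all probes the split was 7380 to 9559 and the median -0.064. Averaged by gene, 13 of 15 calcium channel genes had a negative dye term (86.7%, beside 55.6% of all genes) and 13 of 26 potassium channel genes. Cacna1b and Cacna1h, a T-type channel, were the 2 calcium genes with a positive value. Chloride probes split into 1 positive and 6 negative, and TRP probes into 2 and 6. The potassium median of the dye term exceeded the calcium median in all 5 mice, by 0.11, 0.13, 0.0015, 0.27 and 0.25; in mouse 3 the difference was close to 0, and no test was made over members of a class.

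**Figure D4:**
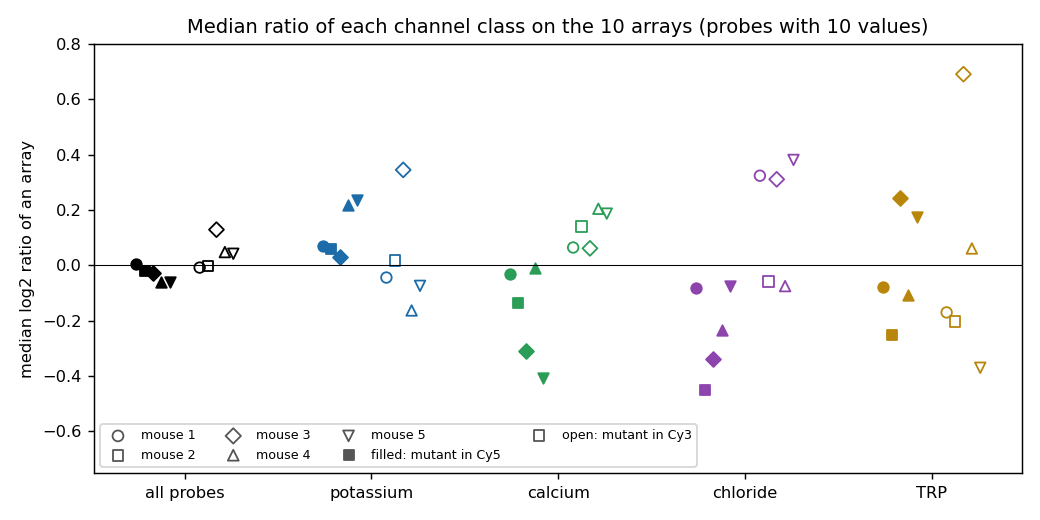
Median log2 ratio of each class on each of the 10 arrays, over probes with a value on all 10; filled symbols have the mutant in Cy5 and open symbols in Cy3, and the symbol shape gives the mouse. The calcium median is below 0 on all 5 Cy5 arrays and above 0 on all 5 Cy3 arrays. The medians of all probes lie between -0.061 and 0.13. On the Cy5 array of mouse 4 the calcium median is above that of all probes (-0.009 and -0.059). On the Cy3 array of mouse 3 it is below that of all probes (0.062 and 0.13). The 20 calcium probes include the 4 of Cacng4.

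The class medians of each array come from the same ratios as the dye terms and are not a second observation. Among calcium channels, 20 probes were measured on all 10 arrays, and they include the 4 probes of Cacng4. The median of these 20 probes was -0.031, -0.14, -0.31, -0.009 and -0.41 on the Cy5 arrays of mice 1 to 5. On the Cy3 arrays it was 0.065, 0.14, 0.062, 0.20 and 0.19. For all probes the medians were between -0.061 and 0.004 on Cy5 arrays and between -0.008 and 0.13 on Cy3 arrays. On the Cy5 array of mouse 4 the calcium median lay above that of all probes (-0.009 and -0.059). On the Cy3 array of mouse 3 it lay below that of all probes (0.062 and 0.13). The potassium median was positive on all 5 Cy5 arrays (0.029 to 0.24), and on the Cy3 arrays it was negative in mice 1, 4 and 5 and positive in mice 2 and 3. Chloride medians were negative on all 5 Cy5 arrays and also on the Cy3 arrays of mice 2 and 4 (-0.058 and -0.075), and they lay between 0.31 and 0.38 on the other 3 Cy3 arrays.

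Of the 13 channel genes with at least 2 tested probes, 6 had pair means of the same sign on all their probes (46.2%, beside 44.4% of 2304 genes), and 4 without mouse 3. Dye terms had the same sign in 7 (53.8%, beside 43.1%). The median range between probes of a gene was 0.32 for the pair mean and 0.21 for the dye term, beside 0.23 and 0.43 over all such genes. Trpc2, which in mice encodes a channel of pheromone-sensing neurons, had the closest pair, with pair means of -0.046 and -0.051 and dye terms of -0.26 and -0.25; without mouse 3 its pair means were 0.18 and 0.0026. The widest ranges of the pair mean were those of Cacna2d1, 0.99, and Kcnn4, 0.81.

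**Figure D5:**
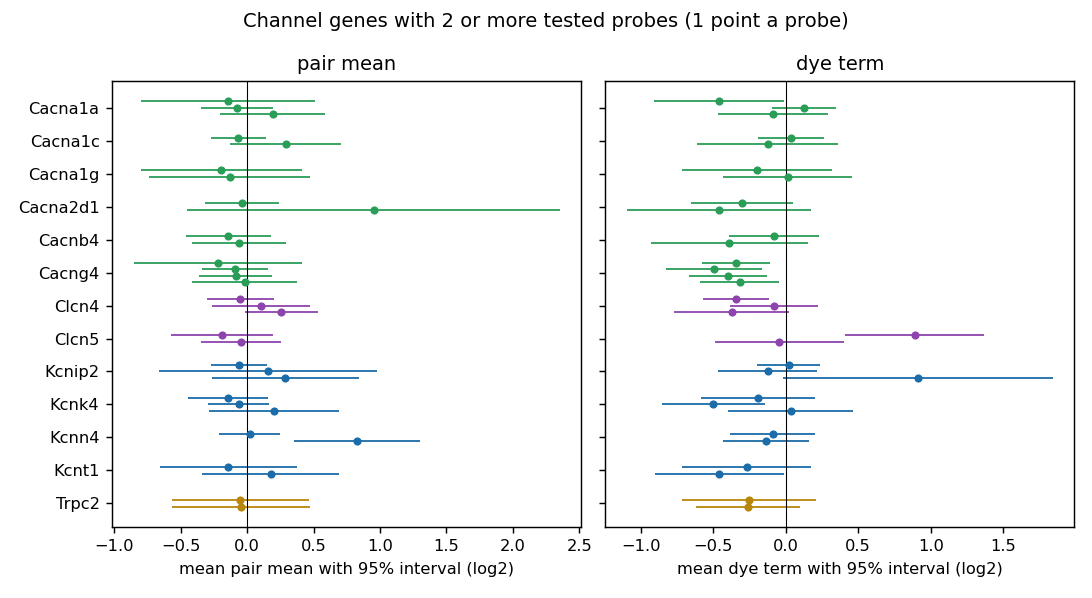
Mean pair mean (left) and mean dye term (right) with 95% intervals, in log2, for each probe of the 13 channel genes with at least 2 tested probes; each point is 1 probe and colours give the class. The 2 probes of Kcnn4 lie 0.81 apart in the pair mean, and the 4 probes of Cacng4 lie together below 0 in the dye term.

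Genes that anchor, modulate or work beside the channels were counted from 2 lists. Of 32 channel anchors and modulators 20 were on the array, with 38 tested probes, 18 positive and 20 negative in the pair mean, a median of -0.025 and 0 called after adjustment by limma. A single probe of the 38 (2.63%, beside 3.73% of all probes) had an unadjusted p under 0.05 by limma, at 0.44 ± 0.27. It reads Sptbn1, the beta-spectrin that links channels to the membrane skeleton. The other Sptbn1 probe gave -0.18 ± 0.16. The dye terms of these 2 probes had the same sign, at -0.43 and -0.40. In the dye term 11 of the 38 probes (28.9%, beside 27.6% of all probes) had an unadjusted p under 0.05, 7 positive and 4 negative, and 0 passed after adjustment by limma. Of 30 ion pumps, exchangers and internal calcium channels 16 were on the array, with 21 tested probes, 12 positive and 9 negative, a median of 0.017 and 0 called in the pair mean by limma, adjusted or not. In the dye term 9 of the 21 probes (42.9%, beside 27.6% of all probes) had an unadjusted p under 0.05, 6 positive and 3 negative, and 0 passed after adjustment by limma. Among these, the probes of Ryr1, an internal calcium release channel, had dye terms of 0.69 and -0.42, and those of Atp2b1, a calcium pump, -0.38 and 0.68, so the sign differed within a gene. No test was made over the list.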

How the data were processed

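Brain RNA of 5 mutant mice was measured on 10 2-colour arrays against a wildtype pool. The deposited values are log2 ratios made by the authors; the log2 scale was read from their range and symmetry, and the scanner, background correction and normalization were not given in the sources used here. Probe symbols came from the platform annotation, and all 86 Entrez identifiers of the channel probes were found in the RefSeq table of GRCm38.p6, with 0 symbols changed. Each array was centred on its median. The mean and half-difference of the 2 arrays of a mouse were compared with 0 by limma 3.58.1 (lmFit, eBayes; R 4.3.3) over all probes with both arrays of at least 4 mice, with Benjamini-Hochberg adjustment and a threshold of 0.05; ± is the SD over mice. The pool is 1 control sample, and the labels give each mutant mouse its own identifier. Each array repeats 1 extreme ratio, between 16.437 and 17.64 in size as deposited, over many probes (1024 values in all), which were kept and set to missing in an alternative. Depth is unknown without intensities; precision is limited by the number of arrays.

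The channel genes and the lists were chosen with earlier results of these data known. Genes were named as the 6 potassium, 3 each of the sodium, calcium and TRP, and 2 each of the chloride and pacemaker probes with the smallest unadjusted p of the pair mean (fewer where a class had fewer), the 3 with the smallest p of the dye term, every probe of Sh3kbp1, and genes chosen by their role in brain, of which 20 of 43 were on the array. Other genes named were chosen after their values were seen. The fit was tested on simulated data. Alternatives changed the centring, scaling, missing-value rule, extreme ratios, variance moderation, choice of probe, reading of the swap, dye orientation and mice included, or fitted all 10 arrays with the mouse as a random block. No coordinates or sequences are given.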

Additional observations from a re-analysis of the deposited data

Results flagged for a closer look

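The pair means of 73 channel probes and the medians of 4 classes, 77 sets in all, were checked for a mouse whose gap to the nearest other mouse exceeded 0.71 of the whole range (a wider limit was used with 4 mice), and 11 were found, where chance gives about 1 in 20. By the same rule, 12.7% of all probes measured in all 5 mice had such a mouse, beside 16.9% of the channel probes, and it was mouse 3 in 71.0% of those probes, beside 9 of the 11. In those 9 the pair mean of mouse 3 was -0.95 for Kcnd3, 1.44 for Kcnf1, 1.11 for Kcnip1, 2.90 for Cacnb2, -0.64 for Cacnb4 probe 13517, 0.73 for Clcn4 probe 12558, 0.64 for Clcn4 probe 16346, 0.54 for Hcn3 and 1.92 for Trpm4. The means of the other 4 mice were 0.079 for Cacnb2, 0.013 for Kcnf1, -0.079 for Kcnip1 and -0.087 for Trpm4. Mouse 5 gave -1.08 for Kcnt1 probe 15988, where the other 4 lay between -0.051 and 0.33. Mouse 1 gave -1.44 for Cacng4 probe 14976, where the others lay between -0.044 and 0.25.

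Also, 3 untested channel probes held the repeated extreme ratio of an array. It was -16.431 for Kcnip3 and for Trpm6 on the Cy3 array of mouse 2, and -16.737 for Kcnj12 on the Cy3 array of mouse 3, after the array medians were removed (-16.437 and -16.735 as deposited). These ratios entered no test.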

How the results depend on the processing

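Of the other settings tried, scaling the arrays to the same spread was the one that changed a count of channel probes called after adjustment, from 0 to 3 for the dye term; every other fit of either quantity, including those without 1 mouse, called 0. Pair means of the same sign numbered 5 to 11 without 1 mouse. The count without mouse 3 was 11 of 72 channel probes (15.3%), beside 14.2% of all probes. Under the other reading of the swap, all columns run Cy5 over Cy3 and the dye term stands for the difference. The count was then 19 of 65 (29.2%, beside 30.5% of all probes). On Cy5 arrays alone it was 22 and on Cy3 arrays alone 12. For these single-dye counts, and without any other mouse, the share of all probes was not counted, so they are no result about channels. The median over all channel probes was -0.012 after scaling, -0.018 with all 5 mice required, 0.016 by gene, -0.028 to 0.0045 without 1 mouse, -0.13 under the other reading, and -0.071 and 0.11 on Cy5 and Cy3 arrays alone. Under the other reading the medians were 0.38 for sodium, -0.21 for calcium and -0.15 for TRP channels. On Cy3 arrays alone they were -0.35, 0.18 and 0.13, and on Cy5 arrays alone sodium gave 0.41. The calcium median by gene was 0.050, and the chloride median with the most complete probe of a gene was -0.17. For a probe with a value on all 10 arrays, the mean on Cy5 arrays is the pair mean plus the dye term. On Cy3 arrays it is the pair mean minus the dye term. The sodium values are those of the 1 Scn3b probe. The cause of the dye terms and of the other shifts was not tested. Of 49 named probes, 24 had the opposite sign under the other reading, 21 on Cy3 arrays alone, 10 on Cy5 arrays alone and 13 without mouse 3, against 0 to 5 elsewhere. With all 10 arrays fitted and the mouse as a random block, the within-mouse correlation was -0.24, or -0.020 with a dye covariate, and 0 probes were called by limma.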
